A study of Mus musculus with 4 samples.

Results

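The regions described here are stretches of open chromatin that were called in every library of a mouse kidney cell line and lie more than 100 kb from any protein-coding gene. Peaks of the 4 deposited lists were merged wherever they overlapped by 1 bp or more, and a merged region was kept if it held a peak of all 4 libraries, was narrower than 3000 bp and lay more than 100 kb from the body of every protein-coding gene of RefSeq. This left 12197 far shared regions of 560228 merged regions, or of 87514 shared regions under the width limit on chromosomes 1 to 19, X and Y. They were chosen by measured values (presence in all 4 lists and merged width) together with their position, so their presence is a description and not a finding.

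The cells were mpkCCD clone 11, mouse cells of the cortical collecting duct kept in culture, at passages 8 to 10. ATAC-seq, which maps where a transposase can reach the DNA, was run on 50000 cells per library with paired reads of 50 bases. All libraries came from cells grown to confluence on permeable supports and moved to medium lacking serum and hormones, after culture with insulin, dexamethasone, triiodothyronine and epidermal growth factor. Of the 4 libraries, 2 received 0.1 nM dDAVP, an analog of vasopressin that acts on the V2 receptor, and 2 its vehicle, for 30 minutes. Whether the libraries stem from separate cultures is not stated, so p-values measure only the spread between these libraries, which may be technical, and the line is 1 clone.

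Long intervals without protein-coding genes are called gene deserts. Many of them flank genes that steer development, and parts of them are known to act as enhancers, which bind transcription factors and raise transcription of a gene at a distance. Deserts also hold non-coding genes: long non-coding RNAs, arrays of small nucleolar RNAs that guide the modification of other RNAs, and microRNAs, which pair through a short seed near their 5′ end with target messenger RNAs and lower their output.

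Of 118 microRNA genes more than 100 kb from protein-coding genes, 66 (55.9%) lay within 10 kb of a far shared region and 11 were overlapped by one. A single cluster of 38.9 kb, near 5 far shared regions, gave 39 of the 66. The share of all far sequence within 10 kb of such a region was not computed. RefSeq (GRCm38.p6) gave mature sequences for 64 of the 66. The first set is shown because a far shared region lay on or beside these microRNA genes outside the large cluster shown next. Capitals mark the seed, bases 2 to 8, and sequences run 5′ to 3′.
mmu-miR-29a-3p: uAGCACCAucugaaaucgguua
mmu-miR-29b-3p: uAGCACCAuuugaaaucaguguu
mmu-miR-205-5p: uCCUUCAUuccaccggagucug
mmu-miR-125b-5p: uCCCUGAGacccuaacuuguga
mmu-miR-802-5p: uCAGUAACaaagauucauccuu
mmu-miR-137-3p: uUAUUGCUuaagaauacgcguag
The first pair of the set shares its seed, and the other 4 each have their own.

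The second set comes from 6 microRNA genes that lay under far shared regions within the imprinted cluster between Rtl1 and Dio3 on chromosome 12.
mmu-miR-381-3p: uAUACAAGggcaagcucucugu
mmu-miR-487b-5p: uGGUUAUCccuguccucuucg
mmu-miR-539-5p: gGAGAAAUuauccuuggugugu
mmu-miR-134-5p: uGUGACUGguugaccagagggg
mmu-miR-668-3p: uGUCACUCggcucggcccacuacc
mmu-miR-410-3p: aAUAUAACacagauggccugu
These 6 mature sequences have 6 different seeds.

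The third set holds promoter windows of long non-coding RNA genes, from 250 bases before to 50 after the annotated start, on the strand of the gene. Of 2074 such windows more than 100 kb from protein-coding genes, 144 (6.94%) were overlapped by a far shared region by 1 bp or more, 80 of them over their whole length, and 20 were covered over all 300 bases by the peaks of all 4 libraries. Of those 20, 4 are shown, picked after their values were seen for the desert they lie in. Capitals mark matches to the short motifs named further on, read on either strand.
Gm36441, chr12:25209552-25209851, minus strand, in the desert between Id2 and Rnf144a: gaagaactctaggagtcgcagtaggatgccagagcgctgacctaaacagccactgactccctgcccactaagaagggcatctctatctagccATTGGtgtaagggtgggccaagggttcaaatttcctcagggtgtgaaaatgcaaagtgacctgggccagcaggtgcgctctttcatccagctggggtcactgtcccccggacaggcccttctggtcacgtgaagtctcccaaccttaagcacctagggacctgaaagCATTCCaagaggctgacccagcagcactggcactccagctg
Gm35240, chr12:77629505-77629804, plus strand, between Fut8 and Gm6657: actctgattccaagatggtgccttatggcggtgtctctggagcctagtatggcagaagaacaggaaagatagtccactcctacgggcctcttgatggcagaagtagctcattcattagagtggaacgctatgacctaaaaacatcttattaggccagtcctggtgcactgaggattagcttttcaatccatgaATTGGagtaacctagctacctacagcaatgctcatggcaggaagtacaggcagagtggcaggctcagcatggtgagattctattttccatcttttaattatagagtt
Gm14250, chr2:169388794-169389093, plus strand, between Zfp64 and Tshz2: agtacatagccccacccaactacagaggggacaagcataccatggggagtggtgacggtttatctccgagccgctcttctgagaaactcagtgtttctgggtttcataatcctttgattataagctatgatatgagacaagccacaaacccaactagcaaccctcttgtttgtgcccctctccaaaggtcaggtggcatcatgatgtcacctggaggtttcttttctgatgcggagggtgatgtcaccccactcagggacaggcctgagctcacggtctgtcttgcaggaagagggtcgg
Gm13003, chr4:137165017-137165316, minus strand, between Zbtb40 and Wnt4: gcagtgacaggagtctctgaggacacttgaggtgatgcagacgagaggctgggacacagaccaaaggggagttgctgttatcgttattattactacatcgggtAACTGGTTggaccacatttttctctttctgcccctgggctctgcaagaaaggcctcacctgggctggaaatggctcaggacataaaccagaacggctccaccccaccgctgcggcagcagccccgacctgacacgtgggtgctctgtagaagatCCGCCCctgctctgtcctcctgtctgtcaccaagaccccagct

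Across the 4 libraries, in the order vehicle replicate 1, vehicle replicate 2, dDAVP replicate 1 and dDAVP replicate 2, which is kept for every set of 4 values below, the lists held 393956, 206972, 291454 and 205771 peaks. The lists give positions alone, so depth is unknown and the lack of a peak does not show closed chromatin. Peaks more than 100 kb from genes numbered 66661, 33386, 47079 and 34023. Of these far peaks, 19.8%, 39.2%, 28.0% and 38.5% lay in far shared regions, with the lowest share in the longest list. As a check of the cell type, a peak lay within 1 kb of either end of the gene in all 4 libraries for 8 of 9 principal cell markers (all but Avpr2), 5 of 5 epithelial markers, 3 of 4 intercalated cell markers and 2 of 4 proximal tubule markers. The same held for 1 of 5 stromal and endothelial markers, 0 of 3 leukocyte markers and 0 of 2 podocyte markers, and Ptprc, Nphs1 and Col3a1 had no such peak in any library. Of all 21887 protein-coding genes, 65.0% had such a peak in all 4 libraries, so these short lists do not tell principal from intercalated cells.

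The far shared regions lay at a median of 244 kb from the nearest protein-coding gene (quartiles 152 and 457 kb), and the farthest at 2200 kb. Their merged width had a median of 648 bp, with quartiles of 434 and 959 bp and a range of 75 to 2986 bp. Between protein-coding genes lay 12020 of them, and 177 lay beyond the outermost annotated gene of a chromosome. The 3 farthest all lay between Olfm4, a secreted glycoprotein of epithelia, and Pcdh17, a protocadherin of neurons, on chromosome 14. The farthest, chr14:82243398-82243885, was covered over 281, 377, 346 and 457 bp in the 4 libraries. The vehicle and dDAVP values of this region overlapped.

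At the limits of the rule, the regions just inside lay 100002, 100024 and 100040 bp from a gene and those just outside 100000, 99931 and 99923 bp. The widest kept were 2986, 2977 and 2975 bp, and the narrowest left out for width 3000, 3008 and 3017 bp. Width alone removed 45 regions that were far and present in all 4 libraries.

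Shared regions became sparser with distance from genes. Outside genes there were 38.0 shared regions per Mb within 10 kb of a protein-coding gene, 35.3 at 10 to 50 kb and 25.1 at 50 to 100 kb. In the range covered here the density was 19.8 per Mb at 100 to 200 kb, 14.6 at 200 to 500 kb, 11.9 at 500 to 1000 kb and 10.8 beyond 1000 kb. The share of merged regions that were present in all 4 libraries moved less, from 16.2% within 10 kb to 11.9% at 200 to 500 kb and 13.7% beyond 1000 kb. The median merged width of the shared regions went from 677 to 602 bp along the far bins. Chromosomes 3 and 12 held many of the regions, and without both the density still fell at each step, from 34.2 to 8.42 per Mb.

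**Figure D1:**
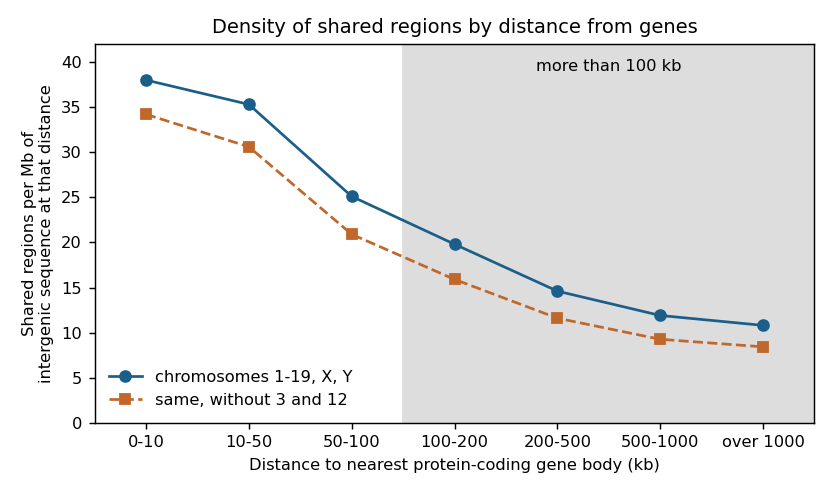
Shared regions under 3000 bp per Mb of intergenic sequence (y axis) by distance to the nearest protein-coding gene body in kb (x axis), for all chromosomes (circles) and without chromosomes 3 and 12 (squares); the shaded bins hold the far shared regions. Density falls from 38.0 per Mb within 10 kb to 10.8 per Mb beyond 1000 kb.

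By chromosome, far shared regions were unevenly spread. Over the sequence between genes that is more than 100 kb from both of them (785 Mb in all) there were 15.3 per Mb. Chromosome 19 had 48.5 per Mb, chromosome 12 had 43.3, chromosome 3 had 30.4, chromosome 16 had 28.1 and chromosome 10 had 24.9. The lowest densities were 1.23 per Mb on Y, 6.76 on 18, 7.54 on X and 7.73 on 4. Chromosome 12 held 1955 of the 12197 regions in 5.75% of the far sequence, and chromosome 3 held 1754 (14.4%) in 7.20%. Their shares of the other shared regions, which lie nearer to genes, were 9.36% and 8.72%. The number of copies of each chromosome in this line is not given in the sources used here, and its part in these densities was not tested.

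**Figure D2:**
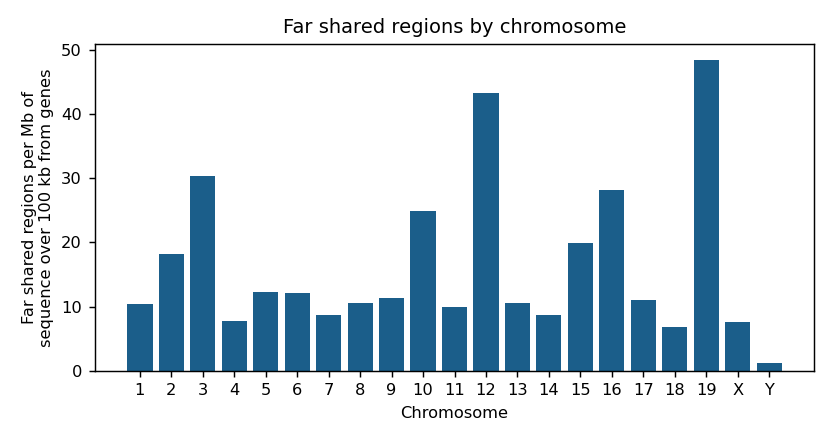
Far shared regions per Mb of sequence more than 100 kb from protein-coding genes (y axis, bars from 0) on each chromosome (x axis). Chromosomes 19 and 12 stand highest at 48.5 and 43.3 per Mb, and Y lowest at 1.23.

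A desert is taken here as the interval between neighbouring protein-coding genes that reaches more than 100 kb from both. Of 1689 deserts, 1245 held at least 1 far shared region and 444 held none. The 364 deserts with 10 or more, which are longer at the median and hold 53.1% of the far sequence between genes, held 8758 regions (71.8%), and the 10 deserts with the most held 863 (7.08%) in 2.49% of the far sequence. The median desert held 3.00 regions, or 10.1 per Mb. Neighbouring regions of a desert were 18.7 kb apart at the median (quartiles 5.07 and 57.0 kb), and 24.7% of gaps were within 5 kb.

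The desert with the most far shared regions was the immunoglobulin heavy chain locus on chromosome 12, between Adam6a, a sperm surface protein gene, and Zfp386, a zinc finger gene (chr12:113546415-116047713). It held 160 regions, 69.5 per Mb. All of its far sequence lies in the RefSeq entry Igh, the locus whose variable segments are joined in B cells to encode antibodies. All 160 regions therefore lay inside that entry. Of these, 46 overlapped one of its 121 variable segments and 11 a variable segment pseudogene. Peaks in the desert numbered 555, 328, 416 and 362, the highest 1.69 times the lowest. Its widest region, chr12:114291232-114293764, was covered over 2456, 1762, 1609 and 1612 bp. The whole Igh entry held 166 regions (60.3 per Mb of the entry). Per Mb of the whole entry, Igk had 47 regions (14.8 per Mb) and Tcra 19 (10.6 per Mb). The chromosomes of these loci run in the same order. Per Mb of far sequence, chromosome 12 (Igh) had 43.3 regions, chromosome 6 (Igk) 12.1 and chromosome 14 (Tcra) 8.72. Whole entries can include sequence too near to protein-coding genes for such a region, so entry and chromosome densities are not like measures. Whether these loci differ beyond their chromosomes was not tested. Variable segments of one family are closely alike in sequence, and how reads with several matches were placed is not given in the sources used here, so positions on such segments are uncertain.

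The second desert ran from Mdga2, a synaptic adhesion molecule, to Rps29, a ribosomal protein (chr12:67222550-69157721). It held 137 regions, 79.0 per Mb, from 458, 273, 346 and 295 peaks. They were packed in 1 place: 79 of the 137 (57.7%) formed a run of regions no more than 10 kb apart over 172 kb (chr12:68357154-68529383). The run limit of 10 kb was chosen after the positions were seen. Within the desert the median gap was 1.61 kb, and only 4 regions overlapped an annotated pseudogene and 0 an annotated long non-coding RNA. Its widest region, chr12:68503675-68506357, lay 651 kb from Rps29 and was covered over 2266, 2074, 1571 and 2213 bp.

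Between Ube3a, the ubiquitin ligase lost in Angelman syndrome, and Snrpn, an imprinted splicing protein gene, 68 regions lay in a desert of 0.672 Mb (chr7:59310838-59982494), or 144 per Mb of its far sequence. All 68 were inside Snhg14, the long host transcript of imprinted small nucleolar RNAs, which spans the whole desert. Of them, 40 overlapped one of the 206 small nucleolar RNA genes in the desert. A run of 44 regions no more than 10 kb apart spanned 118 kb. Peak numbers were 133, 112, 123 and 121, so the highest was 1.19 times the lowest here, against 1.91 times between the full lists, and 38.9% of the merged regions of the desert were present in all 4 libraries, against 12.5% of all far merged regions. The small nucleolar RNA genes are arrays of near-identical copies, and positions among them are uncertain for the reason given for the heavy chain locus. Ube3a had a gene-end peak in all 4 libraries and Snrpn in 0.

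The desert between Runx1, a transcription factor of blood and epithelia, and Setd4, a lysine methyltransferase, was short and dense (chr16:92826075-93583456). It held 63 regions, 113 per Mb, from 258, 152, 215 and 137 peaks. Long non-coding RNA genes in it carried 15 of these regions, 9 of them in 1700029J03Rik and 4 in 1810053B23Rik, and Mir802, a microRNA gene known from liver and kidney tubule, lay 1.59 kb from one. The widest region by rank, chr16:93136188-93138307, was covered over 1472, 1063, 1522 and 1367 bp and lay 310 kb from Runx1. A gene-end peak was present in all 4 libraries for Setd4 and in 3 for Runx1.

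Of the other deserts described, 3 lay on chromosome 3 and 1 each on chromosomes 12 and 2. On chromosome 3, 82 regions lay between Snx16, a sorting nexin, and Ralyl, an RNA-binding protein (29.0 per Mb). Another 77 lay between D3Ertd751e and Pcdh10, a protocadherin of neurons (22.8 per Mb), and 73 between Adgrl2 and Adgrl4, adhesion G protein-coupled receptors (32.5 per Mb). Of the last, 21 overlapped the long non-coding RNA Gm30382. Klhl29 and Apob, which encodes apolipoprotein B, flanked 68 regions on chromosome 12 (28.3 per Mb), with 18 in long non-coding RNA genes, 9 of them in Gm32828 and 7 in Gm9548. The RNA helicase gene Dhx35 and Gm826 flanked 64 on chromosome 2 (51.1 per Mb).

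Single wide regions stood out in some of these deserts and were even across libraries. In the Snx16 desert chr3:10712625-10715331 was covered over 2498, 2673, 2662 and 2696 bp. In the Pcdh10 desert chr3:43556800-43558470, 1753 kb from D3Ertd751e and 1820 kb from Pcdh10, was covered over 1449, 1452, 1671 and 1444 bp. In the Adgrl2 desert chr3:149116581-149117926 was covered over 1314, 1257, 1266 and 1282 bp. In all 3 the vehicle and dDAVP values overlapped.

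Most of these counts rest on the choice of protein-coding genes for the distance. With non-coding genes and pseudogenes counted as well, the heavy chain, Ube3a and Runx1 deserts held 0 regions more than 100 kb from any gene, and those of Mdga2 and Snx16 held 35 and 34.

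**Figure D3:**
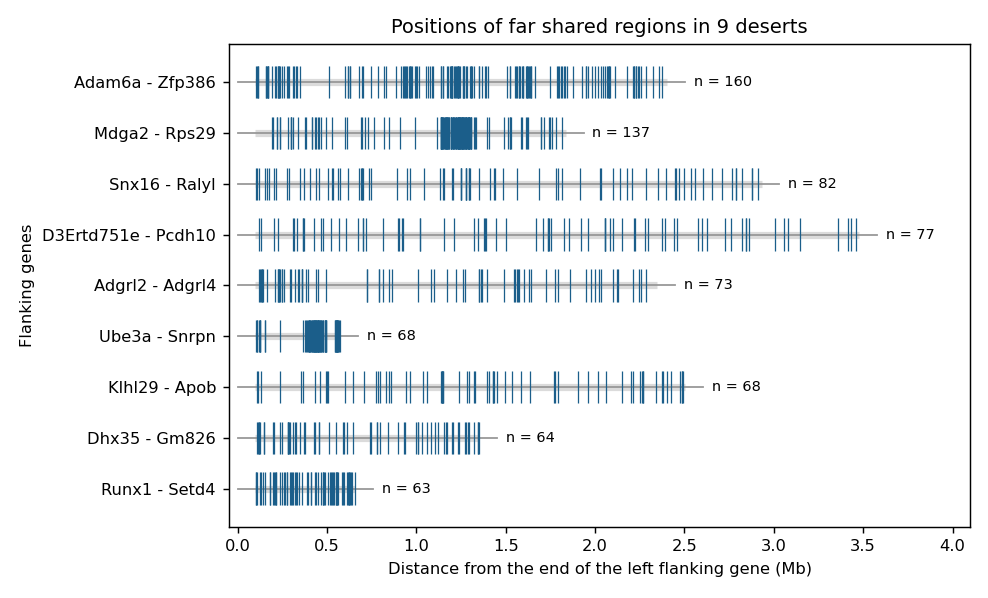
Positions of the far shared regions (vertical ticks) in 9 of the 10 deserts with the most, by distance in Mb from the end of the left flanking gene (x axis); thin lines span each desert, thick grey lines its part more than 100 kb from both genes, and n is the number of regions. The 137 regions between Mdga2 and Rps29 and the 68 between Ube3a and Snrpn include 1 dense run each, of 79 and 44 regions, with the rest elsewhere in the desert, while the 82 between Snx16 and Ralyl are spread over the whole desert.

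Per Mb of far sequence, among deserts with at least 10 regions, the order was different. The densest was Max to Fut8 on chromosome 12, with 17 regions or 226 per Mb. Max is the partner of the Myc transcription factors, and Fut8 a fucosyltransferase. Next came 9530057J20Rik to Gm15319 on chromosome 8 with 41 regions (203 per Mb), Gm14410 to the zinc finger gene Zfp970 on chromosome 2 with 11 (189 per Mb), Cd24a, an epithelial surface protein gene, to Qrsl1 on chromosome 10 with 16 (178 per Mb) and Zxdb to Spin4 on X with 16 (173 per Mb). In the chromosome 8 desert the lists gave 67, 59, 58 and 65 peaks, nearly equal numbers, and 20 of the 41 regions overlapped a pseudogene, 12 of them Gm20778. In the Gm14410 desert all 11 lay inside the pseudogene entry Gm14412. That entry is 130 kb long and spans all of the desert's far sequence, so this overlap follows from position. Reads from copied sequence cannot be placed with certainty, and whether these regions lie on such sequence was not tested.

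Ranked by the width covered in each library, the 10 widest far shared regions lay beside genes of varied kinds. The widest, chrX:170809434-170812408, lay 131 kb beyond Asmt, the outermost gene on X, and was covered over 2966, 2937, 2890 and 2964 bp. Next to Nr4a2, an orphan nuclear receptor induced by cAMP, chr2:56798733-56801303 lay 306 kb from the gene and was covered over 2527, 2546, 2552 and 2568 bp. Between Stpg2 and Pdha2, a testis subunit of pyruvate dehydrogenase, chr3:140771157-140773893 was covered over 2736, 2725, 2678 and 2672 bp. Between the muscarinic receptor gene Chrm3 and the calcium release channel gene Ryr2, chr13:11254256-11256726 was covered over 2430, 2368, 2471 and 2429 bp. Across the annotated start of Lncpint, a long non-coding RNA induced by p53, chr6:31216103-31218726 was covered over 2562, 2201, 2545 and 2054 bp. The remaining 5 were 2 in the chromosome 8 desert with the pseudogenes, the one beside Snx16 given above, and 1 each between Tcp10c and Tcte2 and between Impg1 and Htr1b. Of those given by value, the region at Lncpint varied the most between libraries.

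The genes that flank deserts were read by whether a peak lay within 1 kb of either gene end in all 4 libraries, called open here (the peak may lie at the gene's far end); the shares are descriptions with no test. Of genes beside deserts without a far shared region 37.1% were open. The share was 52.8% beside deserts with 1 to 4 regions, 59.5% with 5 to 9, 65.5% with 10 to 19 and 73.5% with 20 or more, against 65.0% of all 21887 protein-coding genes. Deserts with more regions were also longer, with median far lengths of 54.4 kb in the first group and 1168 kb in the last. Without chromosomes 3 and 12 the share went from 36.4% to 64.2%. On chromosomes 3 and 12 alone it did not climb: it was 85.9% beside deserts with 1 to 4 regions and 86.2% beside those with 20 or more.

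**Figure D4:**
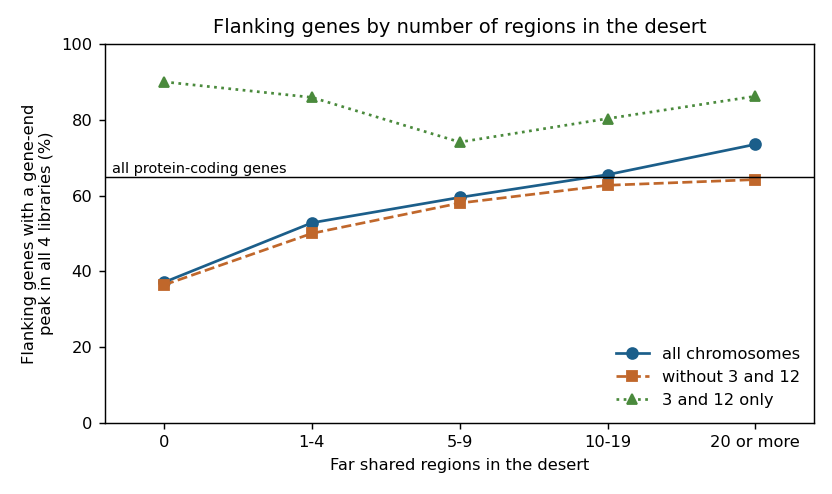
Share of flanking protein-coding genes with a peak within 1 kb of a gene end in all 4 libraries (y axis, percent) by number of far shared regions in the desert (x axis), for all chromosomes (circles), without 3 and 12 (squares) and for these 2 alone (triangles); the horizontal line marks all protein-coding genes. The share runs from 37.1% to 73.5% over all chromosomes and shows no such climb on chromosomes 3 and 12.

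Regulators of the nephric duct and kidney flanked deserts with 10 or more regions in 9 of 64 cases (14.1%), against 667 of 21887 protein-coding genes (3.05%). Open were 7 of the 9, against 465 of the 667. Of the list, 31 genes (48.4%) flank a desert at all, against 12.8% of all genes, and among flanking genes the shares with 10 or more regions were 29.0% and 23.7%. The 9 were Sox11 with 47 regions, Osr1 with 26, Gata3 with 23, Emx2 with 22, Sox9 with 18, Robo2 and Slit2 with 15 each, and Bmp4 and Bmp7 with 10 each. Sox11 and Sox9 are transcription factors of developing organs, Osr1 marks the early kidney field, and Gata3 is needed for the nephric duct and stays on in the collecting duct. Emx2 is needed for outgrowth of the ureteric bud, Slit2 and its receptor Robo2 set where the bud forms, and Bmp4 and Bmp7 are growth factors of the kidney.

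The widest region by rank is given for 5 of these deserts. Between Celf2 and Gata3 the widest, chr2:8188942-8190681, lay 1666 kb from Gata3 and was covered over 1721, 1624, 1403 and 1388 bp. Between Sox11 and Dcdc2c, chr12:27491512-27492793 lay 149 kb from Sox11 and was covered over 1228, 1195, 1140 and 1197 bp. Between Sox9 and Slc39a11, chr11:113102632-113103859 lay 315 kb from Sox9 and was covered over 1101, 1049, 927 and 782 bp. In the Gata3 and Sox9 cases both vehicle values were above both dDAVP values, and neither passed the test given below. The Emx2 desert was dense, with 22 regions at 96.4 per Mb and 9 in long non-coding RNA genes. Its widest, chr19:59628799-59630656, was covered over 1658, 766, 1486 and 1352 bp, with vehicle replicate 2 lowest. Between Osr1 and Nt5c1b the widest, chr12:10157409-10160064, varied the most of these, with 1697, 1424, 2422 and 887 bp.

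Developmental transcription factors flanked deserts with 10 or more regions in 36 of 375 cases (9.60%, against 3.05% of all genes), and 30 of the 36 were open, against 465 of 667 over all genes. Of the list 37.1% flank a desert at all, and among flanking genes 25.9% had 10 or more regions, close to the 23.7% of all flanking genes. Among the highest counts were Runx1 with 63, Id2 with 57, Tshz2 with 56, Myc with 51 and Sox11 with 47. Id2 encodes an inhibitor of helix-loop-helix factors, Tshz2 a teashirt zinc finger factor and Myc a driver of cell growth. The Myc desert held Pvt1, the long non-coding RNA next to Myc, with 18 of its 51 regions. The widest there, chr15:62118269-62119831, lay 128 kb from Myc and was covered over 1304, 1438, 1507 and 1114 bp. Between Zfp64 and Tshz2 the density was 117 per Mb, and the widest, chr2:169432518-169435140, ranged from 453 bp in dDAVP replicate 2 to 2320 bp in vehicle replicate 1.

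Neural adhesion and synapse genes flanked such deserts in 46 of 210 cases (21.9%), the highest share of the 5 lists, against 3.05% of all genes, and 12 of the 46 were open, against 465 of 667 over all genes. Among flanking genes the share was 49.5%, against 23.7% of all flanking genes. Their deserts are long: Pcdh10 had 77 regions, Pcdh18 61, Grik2 58, Flrt2 57, Epha6 48 and Cdh20 and Cntnap5b 44 between them. Pcdh10 and Pcdh18 are protocadherins, Grik2 a kainate receptor subunit, Flrt2 a guidance receptor ligand, Epha6 an ephrin receptor and Cdh20 a cadherin. The density was 10.8 per Mb beside Cdh20, 18.2 beside Grik2 and 22.8 beside Pcdh10. Between Gm40892 and Flrt2 chr12:93927216-93929450 was covered over 2201, 2138, 2108 and 2074 bp, and between Hace1 and Grik2 chr10:46972610-46974692 over 1999, 2008, 2074 and 1981 bp. These wide regions lay 1763 kb from Flrt2 and 2119 kb from Grik2.

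Growth factors and receptors flanked deserts with 10 or more regions in 14 of 192 cases (7.29%, against 3.05% of all genes). Open were 11 of the 14, against 465 of 667 over all genes. Among flanking genes the share was 25.9%, against 23.7% of all flanking genes. The most regions were beside Fstl5 with 48, Igfbp7 37, Rspo3 18, Dusp26 17, Pdgfc 16 and Nrg3 14. This list was built from gene name families, among them Fst, Igfbp and Dusp, so not every member is itself a growth factor or receptor. Of the glucocorticoid and cAMP responsive genes, 2 of 27 (7.41%) flanked deserts with 10 or more regions, against 3.05% of all genes. These were Sgk1 with 20 regions and Nr4a2 with 12, and both were open, as were 465 of 667 over all genes. Sgk1 encodes the kinase that raises sodium channel activity in the collecting duct under corticosteroids, and its desert, shared with Aldh8a1, had 70.0 regions per Mb. The widest region there, chr10:21735283-21736386, lay 146 kb from Sgk1 and was covered over 637, 813, 1070 and 718 bp, with vehicle and dDAVP values overlapping. The lists were chosen with earlier results of these data known, and their counts are descriptions.

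Non-coding genes and pseudogenes overlapped 2220 of the far shared regions (18.2%), while these genes cover 11.1% of the far sequence. For long non-coding RNA genes the values were 1615 regions (13.2%) against 9.29% of the sequence, and for pseudogenes 321 (2.63%) against 0.819%. A region can overlap genes of several classes: 53 overlapped small nucleolar RNA genes (0.00619% of the far sequence), most of them inside Snhg14 as well, 52 variable segments (0.0290%) and 8 microRNA genes (0.00126%). A region was counted if any of its bases touched a gene, so a share of regions can exceed the share of bases through region width alone. This holds most for short genes such as those of small nucleolar RNAs and microRNAs. The shares of regions and of bases are thus not like measures, and enrichment was not tested. Within 10 kb of some non-coding gene or pseudogene lay 3737 (30.6%). By number of regions the leading long non-coding RNAs after Snhg14 were Gm35240 with 26 in 85.7 kb, Gm30382 with 21 in 264 kb and Pvt1 with 18 in 222 kb, followed by Gm19859 with 16, 9630002D21Rik with 14 and Lncpint with 13.

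Over the promoters of these RNAs, 127 far shared regions (1.04%) overlapped a promoter window, of 130 genes. The share of far sequence in such windows was not computed, so this share is not read as high or low. The windows printed above lay in regions that were covered over 925, 1061, 1153 and 961 bp at Gm36441 and over 898, 776, 1116 and 565 bp at Gm35240. At Gm14250 the values were 1503, 734, 394 and 555 bp, and at Gm13003 1349, 1608, 1476 and 1348 bp. The Gm14250 region varied the most of the 4.

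Motifs were searched in these windows, on both strands, since no genome sequence was used here for the regions themselves. The GC box (GGGCGG), bound by Sp factors, was in 22.2% of the 144 windows that a far shared region overlapped, in 4.51% of the other 1930 far windows and in 35.7% of all 32851 promoter windows. The RUNX motif (TGTGGTT) was in 13.2%, 5.85% and 5.27% in that order. AP-1 (TGANTCA) was in 12.5%, 10.2% and 7.81%, Grhl (AACCNGTT), the site of grainyhead factors of epithelia, in 4.86%, 3.89% and 2.09%, and TEAD (GGAATG) in 15.3%, 16.9% and 14.7%. C/EBP (TTGCNNAA) was in 11.1%, 15.3% and 10.8%, NFY (CCAAT) in 39.6%, 39.7% and 37.4%, ETS (ACCGGAAG) in 0.694%, 0.777% and 2.30%, and CRE (TGACGTCA), the site of cAMP-responsive factors, in 0.694%, 0.466% and 1.79%. The glucocorticoid receptor motif was in 1.39%, 0.518% and 0.475% and the CTCF motif in 2.08%, 0% and 1.28%, while NF1 and HNF1 were each in 0 of the 144. The median GC content was 51.7% in the overlapped windows, 44.3% in the other far windows and 52.7% in all, in the same order as the GC box shares. In the sequences shown, Gm13003 holds a Grhl and a GC box match, Gm36441 a TEAD and an NFY match and Gm35240 an NFY match. Motifs of different names can overlap, and a match is a description of letters.

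Among microRNA genes, a single cluster made up most of those near far shared regions. In the desert between Rtl1, an imprinted retrotransposon-derived gene, and Dio3, which inactivates thyroid hormone, 39 microRNA genes within 38.9 kb (chr12:109709060-109747960) lay within 10 kb of 5 far shared regions, of 49 in that desert. The region over Mir381, Mir487b and Mir539 (chr12:109726777-109728308) was covered over 1299, 324, 187 and 463 bp. That over Mir134 and Mir668 (chr12:109733983-109734835) was covered over 852, 241, 516 and 242 bp, and that over Mir410 (chr12:109743527-109744647) over 413, 90, 896 and 572 bp. These widths varied widely, and the treatments overlapped in the first 2 of the 3 regions. At Mir410 both dDAVP values were above both vehicle values, and none of the 3 regions passed the width test given below.

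Single microRNA genes lay near other far shared regions. Mir29a and Mir29b-1, whose products share the seed AGCACCA and are known to lower collagen messages, lay 0.280 and 0.643 kb from chr6:31061665-31062379, which was covered over 339, 239, 566 and 601 bp. Mir125b-1 lay 0.380 kb from chr9:41579468-41581545, covered over 472, 984, 1971 and 769 bp. Mir205, a microRNA of epithelia, lay 2.60 kb from chr1:193510128-193510676, covered over 549, 217, 157 and 134 bp. Mir137, a microRNA of neurons, lay under chr3:118433839-118434600, which was covered over 761 bp in vehicle replicate 2 and over 129, 116 and 132 bp in the others. In the Mir29a region both dDAVP values were above both vehicle values, in the Mir205 region both were below, and the other pair overlapped. None of these regions passed the width test given below. How often values separate this way over all shared regions was not counted.

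Far shared regions were narrower than the other shared regions in all 4 libraries. The median number of bases covered by peaks was 436, 361, 388 and 354 bp in far regions and 555, 443, 491 and 438 bp in the others. The difference was -119, -82.0, -103 and -84.0 bp, with a mean of -97.0 bp (SD 17.5, n = 4; exact two-sided sign-flip permutation test, p = 0.125, the smallest that 4 libraries can give). A single peak made up 92.4%, 93.2%, 92.3% and 93.1% of far regions. The shares were much the same in the other shared regions, at 92.1%, 92.6%, 91.8% and 92.9%. Both groups were chosen under the same width limit.

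**Figure D5:**
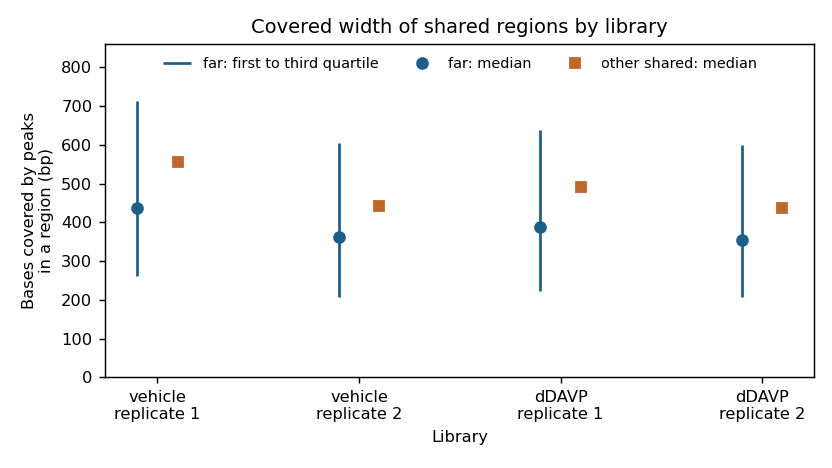
Bases covered by peaks in shared regions (y axis, bp) in each of the 4 libraries (x axis): circles are medians of far shared regions with lines from the first to the third quartile, squares medians of the other shared regions. In every library the far median lies below the other median, by 82.0 to 119 bp.

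Treatment with dDAVP left the share of peaks far from genes within the spread of the libraries. It was 16.9% and 16.1% in the vehicle libraries and 16.2% and 16.5% in the dDAVP libraries, with means of 16.5% ± 0.559 and 16.3% ± 0.270 (SD, n = 2 each). The difference of -0.182 percentage points gave p = 1.00 in an exact two-sided permutation test, for which 2 against 2 libraries cannot go below 0.333. Without vehicle replicate 1 the difference was 0.213 and without dDAVP replicate 1 it was 0.00860, so its direction rests on those libraries.

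Far regions with a peak in both dDAVP libraries and in neither vehicle library numbered 1619 of 97998 far merged regions (1.65%), against 1.61% of all merged regions. The reverse, both vehicle libraries only, held for 3393 (3.46%), against 3.35% of all. Both shares were near the background, and the larger vehicle count goes with the longest list being a vehicle library, whose part in it was not tested. These counts moved when any of the 4 libraries was left out: the dDAVP count ranged from 2623 to 14845 and the vehicle count from 5434 to 31640. In the 10 deserts with the most regions the dDAVP-only counts ran from 4 of 610 merged regions (Mdga2 to Rps29) to 18 of 738 (heavy chain locus). The vehicle-only counts ran from 8 of 175 between Ube3a and Snrpn to 35 of 663 between Adgrl2 and Adgrl4. The dDAVP-only count between Ube3a and Snrpn was also 8 of 175. The deserts differ in their number of merged regions, so the order of counts is not an order of shares.

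The covered width of each far shared region was compared between treatments on the log2 scale with limma, fitted over all 87514 shared regions with Benjamini-Hochberg adjustment. At an adjusted p of 0.05, 0 of 12197 far shared regions were wider and 0 narrower after dDAVP, against 0% of all shared regions in each direction. At an unadjusted p under 0.05, 308 were wider and 340 narrower (5.31%), against 5.26% of all shared regions. The smallest adjusted p was 0.873, and it lay between 0.775 and 0.917 under the alternative settings. The median difference in log2 covered width was 0.03 over far regions and 0.037 over all, and 90% of far regions lay between -1.17 and 1.09, with a median standard error of 0.453. Widths of 87514 regions were simulated with 2 libraries per group, with 200 regions changed. Of the 200, 0 were called at a change of 1 on the log2 scale and 0 at a change of 2. Changes of this size in that few regions were thus not detectable with these libraries, and a change in more regions was not simulated.

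Regions with the smallest p are given as values, since none passed. On chromosome 12 between Lratd1 and the pseudokinase gene Trib2, chr12:14256275-14256827 was covered over 73 and 76 bp in the vehicle libraries and 548 and 512 bp in the dDAVP libraries (log2 difference 2.86, SE 0.28). In the Runx1 desert chr16:93119731-93120166 was covered over 73 and 80 bp and over 422 and 387 bp (2.43, SE 0.29). Between Auts2, a neurodevelopmental gene, and Castor2, chr5:132729474-132730087 was covered over 140 and 119 bp and over 593 and 586 bp (2.27, SE 0.28). The first of these lay 104 kb from a protein-coding gene, the others farther. In the other direction, chr14:85520974-85522011 between Pcdh17 and the formin gene Diaph3 was covered over 625 and 588 bp with vehicle and 81 and 92 bp with dDAVP (-2.73, SE 0.30). Near Zfp36l2, an RNA-binding protein that destabilises messages, chr17:84058150-84059739 was covered over 847 and 663 bp and over 136 and 100 bp (-2.62, SE 0.31). In these 5 regions the treatments did not overlap, as the choice by p fixes, and each had an adjusted p of 0.873 in limma.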

How the data were processed

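ATAC-seq peaks of 4 libraries (2 vehicle, 2 dDAVP) were used. The authors deposited 1 list per library with 3 columns (chromosome, start, end), positions in bases and no other measure such as a score or depth. Per the submitters' processing notes, cutadapt, Bowtie2, SAMtools, Picard, bedtools and MACS2 were used with the build mm10; versions, settings, duplicate handling and read shifting are not stated there. Presence and width of a called peak can depend on depth, which is unknown.

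Groups and replicate numbers came from the sample titles. Peaks were merged in Python 3.11.15 (pandas 2.3.3, numpy 2.4.6), with coordinates given 1-based. Genes (21887 protein-coding, 28056 non-coding or pseudogenes), microRNAs and promoter windows came from RefSeq tables on GRCm38.p6, the same assembly as mm10. Unplaced contigs, for which the table gives no gene positions, were left out. Width in a library is the number of bases its peaks cover, compared in limma 3.58.1 (R 4.3.3) on the log2 scale after quantile normalization; the merging and this test were tested on simulated data. Permutation tests over libraries were exact.

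The regions and gene lists were chosen with earlier results of these data known. Named are the 10 deserts with the most regions, the 5 with the most per Mb among those with 10 or more, the 10 widest regions, the 3 regions in each direction with the smallest p, those at the limits, non-coding genes in these deserts, microRNA genes within 10 kb (as a count, with those on or nearest to a region named), and up to 6 genes a list; some items that this rule takes are not reported here. Names beyond this rule (Igk, Tcra, Pvt1, Lncpint, Gm35240 and the promoters) were chosen after their values were seen, as was the motif search in promoter windows, which replaced one in the regions themselves, not run for want of a genome here. Alternatives changed the distance, overlap, width and gene set, the normalization and the libraries used.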

Additional observations from a re-analysis of the deposited data

Results flagged for a closer look

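Peaks outside the placed chromosomes were not part of any comparison: of 892 merged regions on unplaced contigs, 421 held a peak of all 4 libraries. The contigs had 781 and 679 peaks in the vehicle libraries and 737 and 660 in the dDAVP libraries.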

How the results depend on the processing

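The number of far shared regions, 12197 as reported, was 7318 at more than 200 kb, 4097 where each library had to cover 50% of the region, 5151 with only the wider peaks of each library (its median width or more) and 2566 with the distance taken from every gene, non-coding ones included; with 1 library left out it ranged from 12965 to 16261. Of the 10 deserts with the most regions, 5 were still among the 10 with 50% cover, 3 with every gene and 1 by regions per Mb. With only those wider peaks, far regions seen in dDAVP libraries only numbered 790 and in vehicle libraries only 1611; with 1 library left out they ranged from 2623 to 14845 and from 5434 to 31640, because fewer libraries then had to be without a peak or with one. The difference in far share of peaks reversed to 0.213 without vehicle replicate 1 and 0.00860 without dDAVP replicate 1, over a range of -0.577 to 0.213. With the replicate number as a block, 0 regions were wider and 0 narrower and the smallest adjusted p of limma was 0.875. The deviations of same-numbered libraries from their group means correlated at 0.0966 over 87514 shared regions. No call changed under any setting of the width test. The motif alternative in the whole region was not run. Depth is unknown, and the peak lists limit every result to presence and width.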
